A study of Mus musculus with 12 samples.

Results

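The growth hormone receptor gene Ghr and 9 genes of the JAK2-STAT5 pathway behind it were followed in the livers of mice fed diets with or without sulfur amino acid restriction (SAAR). The 10 genes (Ghr, Igf1, Igfals, Jak2, Stat5a, Stat5b, Socs2, Cish, Bcl6 and Cux2) were chosen by symbol, with the results of the same diet comparisons known, out of 36047 genes with a summed count. All 10 were among the 14670 genes that passed the filter on low counts and were tested. RNA-seq had been made from 12 livers, 1 per mouse, of singly housed C57Bl/6J males. They were 5 to 6 months old, ate their diet for 7 days and went without food for the last 4 h. Per the paper, mice of this feeding study were labeled with deuterium, by an injection and in their drinking water. Each of 4 groups held 3 mice. RF.Ctrl and RF.SAAR mice ate a regular-fat diet with 18% of energy as fat, and HF.Ctrl and HF.SAAR mice a high-fat diet with 60%. All 4 diets lacked cysteine and held equal nitrogen, so the control mice were also fed without cysteine, and both SAAR diets held less methionine, made up with glutamic acid. All mice were of 1 sex and 1 strain, and no pituitary or plasma hormone was measured in these files.

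Growth hormone from the pituitary binds its receptor on hepatocytes and activates the kinase JAK2, which is bound to the receptor's inner tail. JAK2 phosphorylates the transcription factors STAT5A and STAT5B, which enter the nucleus and switch on target genes, among them the secreted growth factor IGF1, its carrier partner ALS (gene Igfals) and the feedback inhibitors SOCS2 and CIS (gene Cish). In male rodents the hormone arrives in pulses and in females more steadily, and STAT5B turns this difference into the sex-biased expression of many liver genes. BCL6, higher in male liver, and CUX2, found mainly in female liver, are repressors that act on this program.

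Ghr was lower under SAAR at both fat contents, while no other of the 10 genes passed the threshold of an adjusted p below 0.05. Beside Ghr, the genes downstream of the receptor that make circulating IGF1 and its carrier were lower in every SAAR mouse than in every control mouse of the same fat content on the normalized count scale, whereas Jak2 and Stat5b overlapped between the groups. In RF.SAAR vs. RF.Ctrl 1 of 10 members was called, against 1.49% of all tested genes (0.886% called lower and 0.6% called higher). In HF.SAAR vs. HF.Ctrl 1 of 10 was called, against 1.97% of all tested genes (0.961% lower and 1.01% higher). The median log2 fold change of the members was -0.27 on regular fat and -0.22 on high fat, and that of all tested genes was 0.00 in each. Without overlap between the 3 SAAR and the 3 control mice, 4 members were lower (Ghr, Igf1, Igfals and Bcl6) and 2 higher (Stat5a and Cux2) on regular fat, where 9.7% of all tested genes were lower and 8.51% higher in this way. On high fat 3 were lower (Ghr, Igf1 and Igfals) and 0 higher, where 8.97% of all tested genes were lower and 8.89% higher. Since the members were chosen with these comparisons known, these counts describe them and carry no further weight. Values are in CPM unless stated, the estimated counts scaled to a common library size after normalization, fold changes are SAAR over control on the log2 scale with their standard errors, and adjusted p-values come from edgeR's quasi-likelihood test over all tested genes. Libraries held between 15987252 and 20848500 estimated counts, and the members between 72 (Cux2) and 9413 (Ghr) in a library. Of the livers, 3 stood apart by RNA of pancreatic acinar cells, whose 18 markers summed to 5905 CPM in HF.Ctrl mouse 2, 3546 CPM in HF.SAAR mouse 2 and 16822 CPM in HF.SAAR mouse 3, against 1337 CPM in RF.Ctrl mouse 1, 1624 CPM in HF.Ctrl mouse 1 and 39.5 to 83.2 CPM in the other 7.

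**Figure D1:**
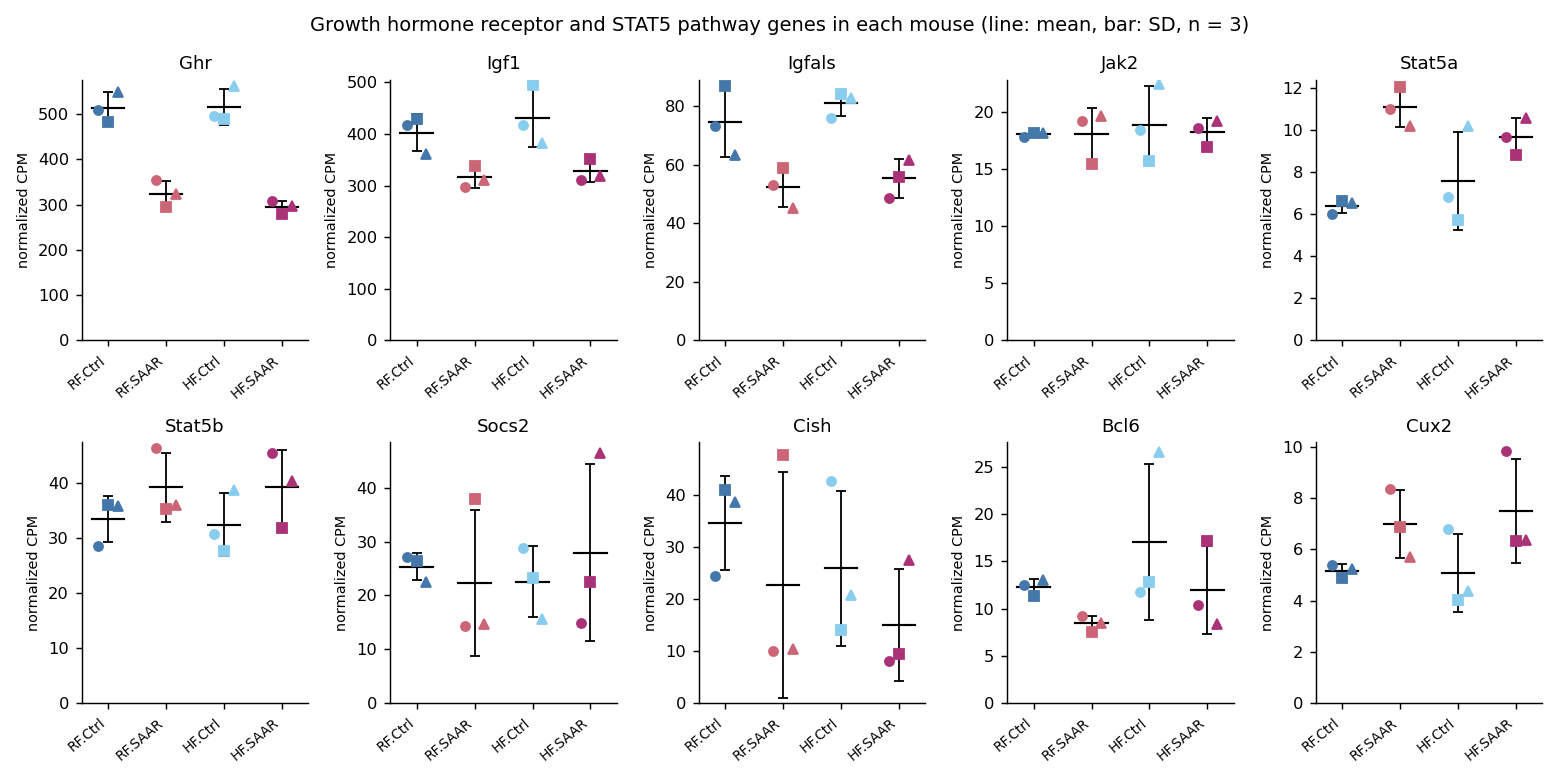
Normalized CPM (vertical axes, from 0) of the 10 genes in each of 12 mice by diet group (horizontal axes). Symbols mark the mouse number within a group, horizontal lines the mean and bars the SD of 3 mice. The 6 SAAR mice lie below the 6 control mice for Ghr (at most 354 against at least 481 CPM), and Socs2 and Cish spread widely within the SAAR groups.

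Ghr encodes the receptor itself (chr15:3317760-3583492, minus strand, GRCm38). Its level was 509, 481 and 549.7 CPM in the RF.Ctrl mice and 354, 296 and 323 CPM in the RF.SAAR mice. In the HF.Ctrl mice it was 495, 489 and 562 CPM and in the HF.SAAR mice 308, 278 and 297 CPM. In CPM all 6 SAAR mice were thus below all 6 control mice, with group means of 514 ± 34.3 (RF.Ctrl), 324 ± 29.2 (RF.SAAR), 515 ± 40.3 (HF.Ctrl) and 294 ± 14.8 CPM (HF.SAAR) (SD, n = 3). Ghr fell by 36.9% on regular fat (log2 fold change -0.66 ± 0.10, SE, adjusted p = 0.00482) and by 42.9% on high fat (-0.81 ± 0.10, adjusted p = 0.000761). By unadjusted p it ranked 35 and 26 among the 14670 tested genes. In TPM, which divides by transcript length and gives every library the same total, the means were 271 ± 15.2, 198 ± 27.5, 239 ± 46.2 and 171 ± 25.5 in the same order. On this scale the SAAR mice stayed below the controls of their fat content, on high fat narrowly (at most 193 against at least 196 TPM). Across fat contents they did not, with RF.SAAR mouse 1 at 226 TPM and HF.Ctrl mouse 2 at 196 TPM. In whole tissue, fewer cells of a type and less RNA per cell cannot be told apart. Without the 3 mice with the most pancreatic RNA the fold change on high fat was -0.80 with an adjusted p of 0.135, in a fit that left 1 HF.SAAR mouse and 2 HF.Ctrl mice, while on regular fat it was -0.66 with an adjusted p of 0.019.

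The receptor gene makes a membrane receptor and, in rodents, a secreted short form from the same gene, the growth hormone binding protein, which holds hormone in the circulation. Of the 10 annotated Ghr transcripts 8 passed the filter. Ghr-201, with 11 exons and 4175 bases, carried 69.2% of the gene's estimated counts over the 12 mice, and Ghr-203, with 9 exons and 1171 bases, carried 27.9%. Each of the others carried at most 1.62%. Both forms use the same exons 2 to 8 and then part. Translated, Ghr-201 encodes 650 residues and Ghr-203 encodes 297, of which the first 270 are shared. The coding bases of exon 9 of each form, where they part, are shown because they separate a membrane-bound from a secreted product. They are read from the reference transcripts on the minus strand of GRCm38, at chr15:3325898-3325988 (Ghr-201) and chr15:3327604-3327686 (Ghr-203).
Ghr-201 exon 9: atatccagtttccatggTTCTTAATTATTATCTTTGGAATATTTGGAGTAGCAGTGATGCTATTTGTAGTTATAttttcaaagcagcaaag
Ghr-203 exon 9: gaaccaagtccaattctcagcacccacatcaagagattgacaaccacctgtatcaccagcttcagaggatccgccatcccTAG
In the first sequence the capitals mark the 19 codons (residues 277 to 295) with the highest mean Kyte-Doolittle hydropathy of the form's own part, 3.21, a stretch that lies in the known transmembrane segment. In the second they mark the stop codon. The highest mean over 19 residues in the own part of Ghr-203 was -1.52, on a scale where positive values are hydrophobic.

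In CPM both forms were lower in all SAAR mice than in all control mice of the same fat content. In TPM this held for Ghr-203 at both fat contents and for Ghr-201 on high fat. On regular fat Ghr-201 overlapped in TPM, with RF.SAAR mouse 1 at 81.1 and RF.Ctrl mouse 1 at 80.1 TPM. Ghr-203 was at 158, 154 and 151 CPM in RF.Ctrl and at 91.2, 84.2 and 82.9 CPM in RF.SAAR, and at 146, 137 and 141 CPM in HF.Ctrl and 88.4, 75.4 and 74.5 CPM in HF.SAAR. Its log2 fold change was -0.84 ± 0.08 on regular fat (adjusted p = 0.012 over 35707 tested transcripts) and -0.83 ± 0.08 on high fat (adjusted p = 0.00241). Ghr-201 was at 346, 314 and 382 CPM in RF.Ctrl and 252, 201.4 and 231 CPM in RF.SAAR, and at 339.7, 344 and 403 CPM in HF.Ctrl and 211, 192 and 216 CPM in HF.SAAR. Its fold change was -0.61 ± 0.11 on regular fat, where it missed the threshold (adjusted p = 0.081), and -0.81 ± 0.11 on high fat (adjusted p = 0.013). Of all tested transcripts 0.148% were called on regular fat and 0.356% on high fat. The call of Ghr-201 on high fat was lost without HF.SAAR mouse 1 or mouse 2 (adjusted p = 0.082 and 0.068), and DESeq2 called it on regular fat too (adjusted p = 0.000277). The ratio of Ghr-203 to Ghr-201 in TPM ran from 1.71 to 2.12 in RF.Ctrl and from 1.55 to 1.78 in RF.SAAR, so the groups overlapped, and from 1.51 to 1.84 in HF.Ctrl and from 1.48 to 1.81 in HF.SAAR, where they overlapped nearly throughout. As a share of all Ghr TPM, Ghr-203 held 59.0% to 62.9% in RF.Ctrl and 55.9% to 58.2% in RF.SAAR, without overlap, and 55.1% to 59.9% in HF.Ctrl and 55.6% to 58.9% in HF.SAAR, with overlap. Counts of the 2 forms are estimates that divide reads from their shared exons.

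**Figure D2:**
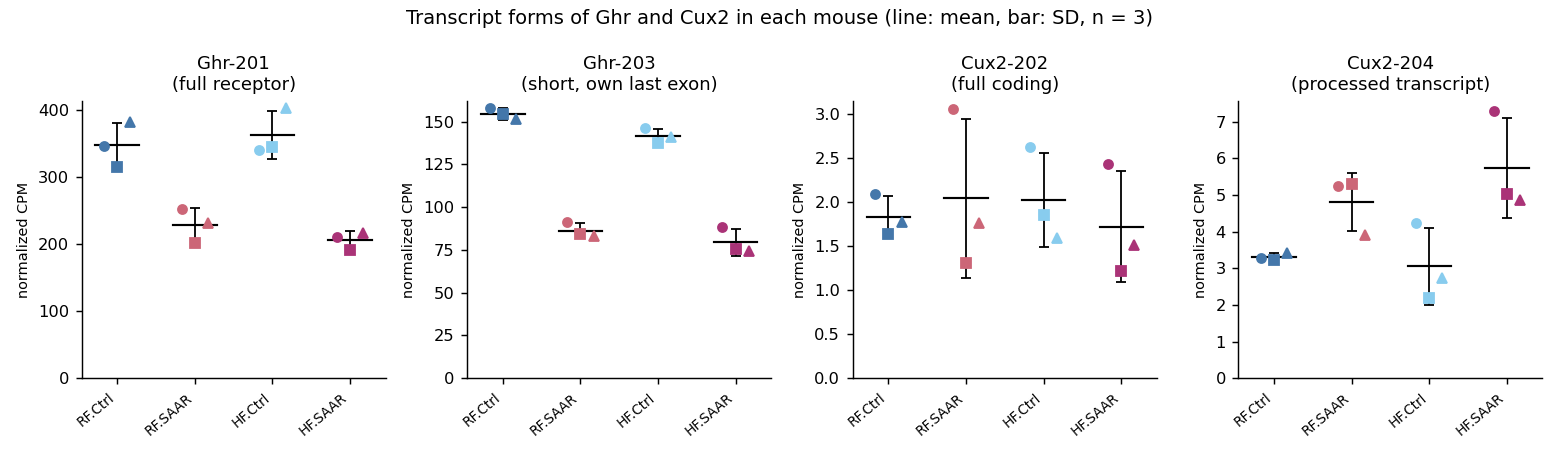
Normalized CPM (vertical axes, from 0) of both main transcript forms of Ghr and of Cux2 in each mouse by diet group, with the mean (line) and SD (bar) of 3 mice. Ghr-203 lay between 74.5 and 91.2 CPM in SAAR mice and between 137 and 158 CPM in controls, and for Cux2 the SAAR mice were higher in Cux2-204 but not apart from controls in Cux2-202.

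The genes of the secreted products of the pathway were apart between the diets in CPM summed per gene but did not pass the threshold. Igf1, the growth factor that the liver releases on growth hormone action, was at 417, 428 and 362 CPM in RF.Ctrl and 298, 339 and 311 CPM in RF.SAAR. It was at 417, 495 and 383 CPM in HF.Ctrl and 311, 351 and 319 CPM in HF.SAAR. The groups did not overlap at either fat content, with log2 fold changes of -0.35 ± 0.11 (adjusted p = 0.158) and -0.40 ± 0.11 (adjusted p = 0.0958). It was lower under all 14 other settings, at -0.19 and -0.23 with library size alone. In TPM the groups overlapped, with means of 364 ± 42.8 in RF.Ctrl and 355 ± 21.9 in RF.SAAR and of 374 ± 36.5 in HF.Ctrl and 366 ± 22.9 in HF.SAAR. The TMM factors behind the CPM were 0.945 to 0.979 in RF.Ctrl and 1.04 to 1.11 in RF.SAAR, and 0.863 to 0.998 in HF.Ctrl and 0.98 to 1.08 in HF.SAAR. Among its transcripts, the short coding forms of 798 and 651 bases held the largest group means of the share of Igf1 TPM, from 31.5% to 34.0% and from 30.4% to 37.5%. Both overlapped between SAAR and control mice at each fat content, with log2 fold changes of -0.31 ± 0.18 and -0.40 ± 0.18 for the first and of -0.08 ± 0.26 and -0.44 ± 0.26 for the second. The largest part of the counts, 49.2%, fell on Igf1-202, a form of 7052 bases with 7.42% to 8.52% of the TPM, which was at 187 to 220.4 CPM in RF.Ctrl and 146 to 165 CPM in RF.SAAR, and at 192 to 214 CPM in HF.Ctrl and 147 to 174 CPM in HF.SAAR, without overlap (-0.39 ± 0.10 and -0.34 ± 0.10, adjusted p = 0.215 and 0.278).

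Igfals encodes the acid-labile subunit, which holds IGF1 and its binding protein in a long-lived complex in blood. It was at 73.1, 86.9 and 63.3 CPM in RF.Ctrl and 53.1, 59.0 and 45.3 CPM in RF.SAAR, and at 75.8, 84.1 and 82.7 CPM in HF.Ctrl and 48.5, 55.8 and 61.6 CPM in HF.SAAR. Again no SAAR mouse reached a control mouse of its fat content in the CPM summed over the gene's transcripts. The log2 fold changes were -0.50 ± 0.14 (adjusted p = 0.0933) and -0.55 ± 0.14 (adjusted p = 0.0585). With DESeq2 Igfals was called at both fat contents (adjusted p = 0.0219 and 0.00758) and Igf1 on high fat (0.0191). In TPM Igfals overlapped between SAAR and control mice, from 24.4 to 34.9 in RF.SAAR against 27.3 to 39.9 in RF.Ctrl. Of its counts 66.9% fell on the coding form Igfals-201 and 30.8% on Igfals-204, a processed transcript. In CPM Igfals-201 was apart on regular fat (-0.49 ± 0.14, edgeR adjusted p = 0.347). On high fat it overlapped between SAAR and control mice (-0.29 ± 0.14, edgeR adjusted p = 0.716). Igfals-204 overlapped on regular fat (-0.61 ± 0.57) and was apart on high fat (-1.12 ± 0.57).

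**Figure D3:**
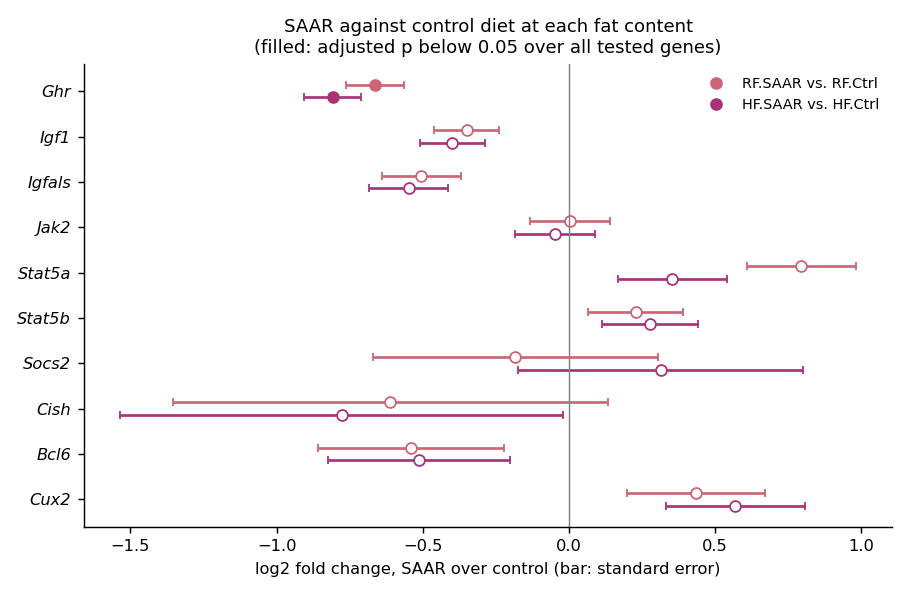
Log2 fold change of SAAR over control (horizontal axis, bars: standard error) for the 10 genes (vertical axis) on regular and on high fat, with filled points for an adjusted p below 0.05. Ghr is filled in both comparisons at -0.66 and -0.81, and the other genes are open.

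Of the signal carriers, the kinase gene Jak2 overlapped between the diets, with 17.8 to 18.2 CPM in RF.Ctrl, 15.5 to 19.7 CPM in RF.SAAR, 15.7 to 22.5 CPM in HF.Ctrl and 16.9 to 19.2 CPM in HF.SAAR. Its log2 fold changes were 0.00 ± 0.14 and -0.05 ± 0.14 (adjusted p = 0.995 and 0.944). Stat5b, the form through which male growth hormone pulses mainly act in liver, was at 28.5 to 35.9 CPM in RF.Ctrl and 35.1 to 46.3 CPM in RF.SAAR, and at 27.6 to 38.7 CPM in HF.Ctrl and 31.8 to 45.4 CPM in HF.SAAR. The groups overlapped, and its fold changes of 0.23 ± 0.16 and 0.28 ± 0.16 had adjusted p-values of 0.627 and 0.554. With 1 mouse left out they ran from 0.09 (without RF.SAAR mouse 1) to 0.30 and from 0.16 (without HF.SAAR mouse 1) to 0.43 (without HF.Ctrl mouse 3).

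Stat5a, the close relative of Stat5b on the same chromosome, was the member nearest to the threshold in the upward direction. It was at 6.01, 6.61 and 6.51 CPM in RF.Ctrl and 11.0, 12.0 and 10.2 CPM in RF.SAAR, and all 3 SAAR mice were above all controls. In HF.Ctrl it was at 6.81, 5.72 and 10.2 CPM and in HF.SAAR at 9.64, 8.80 and 10.6 CPM, where HF.Ctrl mouse 3 lay among the SAAR mice. The log2 fold change was 0.80 ± 0.19 on regular fat (adjusted p = 0.0534) and 0.35 ± 0.19 on high fat (adjusted p = 0.476). The interaction of both was -0.44 ± 0.26 (adjusted p = 0.999), so the smaller value on high fat was not shown to differ. On high fat it was 0.63 without HF.Ctrl mouse 3 (adjusted p = 0.0909), 0.18 without HF.Ctrl mouse 2 and 0.16 without the 3 mice with the most pancreatic RNA. Stat5a on regular fat was called under 6 of 14 other settings, among them DESeq2 (adjusted p = 0.00701). It rests on 100 to 227 estimated counts per library, and reads that fit both Stat5 genes are divided by estimation. In TPM Stat5b stayed above Stat5a in the mean of every group, at 7.01 against 2.04 in RF.Ctrl, 9.30 against 4.83 in RF.SAAR, 6.50 against 2.05 in HF.Ctrl and 8.68 against 3.13 in HF.SAAR.

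The feedback inhibitors Cish and Socs2, direct STAT5 targets that bind the activated receptor and damp its signal, differed more between mice of a group than between diets. Cish was at 24.3, 40.9 and 38.5 CPM in RF.Ctrl and 9.91, 47.7 and 10.4 CPM in RF.SAAR. In HF.Ctrl it was at 42.6, 14.1 and 20.7 CPM and in HF.SAAR at 8.15, 9.38 and 27.4 CPM. In each SAAR group 2 mice lay below all controls of their fat content and 1 mouse lay among or above them, RF.SAAR mouse 2 and HF.SAAR mouse 3.

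Socs2 was at 27.2, 26.3 and 22.6 CPM in RF.Ctrl and 14.3, 37.9 and 14.8 CPM in RF.SAAR, and at 28.8, 23.3 and 15.6 CPM in HF.Ctrl and 14.96, 22.4 and 46.5 CPM in HF.SAAR. The same RF.SAAR mouse 2 and HF.SAAR mouse 3 held the highest Socs2 of their groups and of all 12 mice. The log2 fold changes were -0.61 ± 0.74 and -0.78 ± 0.76 for Cish and -0.18 ± 0.49 and 0.31 ± 0.49 for Socs2, with adjusted p-values between 0.764 and 0.938. Without RF.SAAR mouse 2 the values on regular fat were -1.77 (adjusted p = 0.289) and -0.80 (0.475). Without RF.SAAR mouse 1 or mouse 3 they were -0.25 and -0.26 for Cish, and Socs2 turned to 0.05 each time. On high fat Cish went to -1.55 without HF.SAAR mouse 3 and to -0.21 without HF.Ctrl mouse 1, and Socs2 turned to -0.27 without HF.SAAR mouse 3. HF.SAAR mouse 3 also held the most pancreatic and lymphocyte marker RNA of the 12 mice, while RF.SAAR mouse 2, at 83.2 CPM of the pancreatic markers and 16.0 CPM of the lymphocyte markers, did not stand apart. The SD of log2 CPM within groups was 0.92 for Cish and 0.62 for Socs2, wider than in 95.8% and 88.1% of tested genes, against a median of 0.23 over all tested genes and 0.10 for Ghr. Cish shares 261 and 479 of its 6419 exonic bases with genes on the opposite strand, and the study's methods do not state whether the strand of the reads was used.

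**Figure D4:**
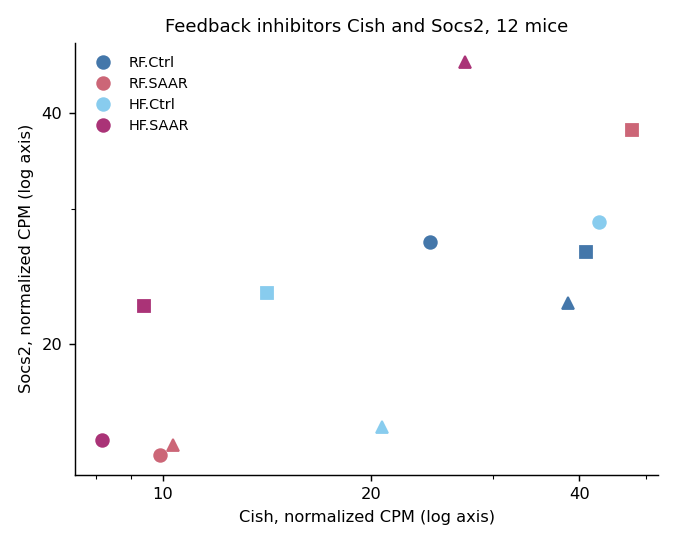
Socs2 (vertical, log axis) against Cish (horizontal, log axis) in normalized CPM for each of 12 mice, coloured by diet group, with symbols for the mouse number. Of the SAAR mice, RF.SAAR mouse 2 (47.7 and 37.9 CPM) and HF.SAAR mouse 3 (27.4 and 46.5 CPM) stand apart from the other 4 at the left.

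STAT5 binds the palindrome TTCNNNGAA, so RefSeq promoter windows of the members (250 bases before to 50 after a start, GRCm38) were searched for it. The motif reads the same on both strands. Of 16 windows of 9 members (Socs2 had none in the table used), 5 held it, in Cish, Bcl6 and Igfals, against 8.30% of all 32851 windows. One Bcl6 window held 3 matches, which 0.0335% of all windows did, and the Cish window held 2, which 0.457% did with 2 or more. Those of Ghr, Igf1, Jak2, Stat5a, Stat5b and Cux2 held 0. The stretches with the most matches per window, and the Igfals match nearest to its start, are shown because these 3 genes are receptor targets or regulators, with each match in capitals.
Cish, chr9:107296629-107296688, plus strand: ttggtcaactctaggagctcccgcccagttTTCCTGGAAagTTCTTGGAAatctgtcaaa
Bcl6, chr16:23981333-23981481, minus strand: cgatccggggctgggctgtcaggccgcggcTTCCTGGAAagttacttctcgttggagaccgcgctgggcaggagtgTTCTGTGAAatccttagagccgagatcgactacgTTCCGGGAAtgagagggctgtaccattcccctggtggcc
Igfals, chr17:24878143-24878211, plus strand: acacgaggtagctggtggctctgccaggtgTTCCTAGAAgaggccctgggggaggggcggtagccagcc
The matches begin at +1 and +12 from the start in Cish, at -168, -122 and -88 in Bcl6 and at -58 in Igfals. A match is a description of letters in the reference, and binding was not measured in these files.

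Of the repressors, Bcl6 was at 12.5, 11.3 and 13.0 CPM in RF.Ctrl and 9.22, 7.58 and 8.53 CPM in RF.SAAR, without overlap. In TPM these groups overlapped, with RF.SAAR mouse 1 at 3.35 and RF.Ctrl mouse 1 at 3.33 TPM. In HF.Ctrl it was at 11.8, 12.8 and 26.6 CPM and in HF.SAAR at 10.3, 17.2 and 8.38 CPM, where HF.Ctrl mouse 3 stood far above its group and HF.SAAR mouse 2 above the other controls. The log2 fold changes were -0.54 ± 0.32 (adjusted p = 0.532) and -0.51 ± 0.31 (adjusted p = 0.569). Without HF.Ctrl mouse 3 the value on high fat was -0.04, without HF.SAAR mouse 2 it was -0.88, and without HF.SAAR mouse 3 it was -0.31.

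Cux2 was at 5.38, 4.89 and 5.22 CPM in RF.Ctrl and 8.36, 6.87 and 5.72 CPM in RF.SAAR, and at 6.81, 4.02 and 4.39 CPM in HF.Ctrl and 9.85, 6.32 and 6.35 CPM in HF.SAAR. The groups were apart on regular fat and overlapped through HF.Ctrl mouse 1 on high fat. The log2 fold changes were 0.43 ± 0.24 (adjusted p = 0.479) and 0.57 ± 0.24 (adjusted p = 0.326). Without RF.SAAR mouse 1 the value on regular fat was 0.28, and on high fat it was 0.33 without HF.SAAR mouse 1 and 0.93 with effective length offsets. Only 2 of its 11 transcripts passed the filter, and the following split was looked at after their values had been seen. Cux2-204, a processed transcript of 740 bases and 8 exons without an annotated coding sequence, carried 68.5% of the counts. It has a first exon of its own (chr5:121914966-121915072) and then uses exons 5 to 11 of the full coding form Cux2-202, which has 23 exons and 8784 bases.

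Cux2-204 was at 3.28, 3.22 and 3.42 CPM in RF.Ctrl and 5.25, 5.29 and 3.91 CPM in RF.SAAR, and at 4.23, 2.18 and 2.74 CPM in HF.Ctrl and 7.30, 5.03 and 4.88 CPM in HF.SAAR, higher in all SAAR mice at each fat content. Its log2 fold changes were 0.53 ± 0.28 and 0.91 ± 0.28, with adjusted p-values of 0.717 and 0.361. Cux2-202 ran from 1.64 to 2.09 CPM in RF.Ctrl and from 1.31 to 3.05 CPM in RF.SAAR, and from 1.59 to 2.63 CPM in HF.Ctrl and from 1.22 to 2.43 CPM in HF.SAAR. The full coding form thus overlapped between SAAR and control mice, with fold changes of 0.16 ± 0.40 and -0.22 ± 0.40. The forms were not tested against each other, and the share of all tested transcripts without overlap was not counted.

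No member was called between the fat contents. The regular-fat and the high-fat diets came from different makers, so fat content and maker cannot be told apart. In HF.Ctrl vs. RF.Ctrl 0 of 10 were called, 0 at an unadjusted p under 0.05 and 0 by DESeq2, where 0% of all tested genes were called by edgeR (527 of 14670 at an unadjusted p under 0.05 and 31 called by DESeq2). Ghr had a log2 fold change of 0.01 ± 0.10 there. In HF.SAAR vs. RF.SAAR 0 of 10 were called, 0 at an unadjusted p under 0.05 and 0 by DESeq2, against 0.0477% of all tested genes called by edgeR, and Ghr was at -0.14 ± 0.10 (adjusted p = 0.987). For the interaction, the difference between the SAAR effects at both fat contents, 0 of 10 were called by edgeR or DESeq2 and 0 had an unadjusted p under 0.05, against 0.00682% of all tested genes called by edgeR. The interaction value was -0.14 ± 0.14 for Ghr, -0.05 ± 0.16 for Igf1 and -0.04 ± 0.19 for Igfals. Of the 4 levels of Ghr, both control groups stood above both SAAR groups, the controls could not be ordered (515 and 514 CPM, and 239 and 271 TPM, in HF.Ctrl and RF.Ctrl), and HF.SAAR and RF.SAAR did not differ beyond the test.

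The surrounding machinery of the receptor did not pass the threshold. The first list, of 32 genes written from general knowledge (other STATs, JAK1 and TYK2, SOCS proteins, phosphatases, adaptors and related receptors), had 31 tested, of which 0 were called at either fat content by edgeR or DESeq2, and 6 and 2 had an unadjusted p under 0.05. Its median log2 fold change was -0.03 on regular fat and 0.06 on high fat, beside 0.00 for all genes. The smallest p-values belonged to Pik3r1, a regulatory subunit of PI3-kinase (-0.45 ± 0.17 and -0.39 ± 0.17), Gab1, an adaptor (-0.43 ± 0.16 on regular fat), and Ptpn2, a phosphatase of JAKs and STATs (0.32 ± 0.13 on high fat), with adjusted p-values from 0.247 to 0.353. On regular fat Ptpn2 had the opposite sign, at -0.26 ± 0.13 (edgeR adjusted p = 0.407). Of 14 hepatocyte transcription factors known to work with STAT5 or at the Ghr and Igf1 genes, 0 were called by edgeR, 2 had an unadjusted p under 0.05 in each comparison, and DESeq2 called 2 lower on regular fat and 1 on high fat. Without HF.Ctrl mouse 2, edgeR called 1 lower on high fat. The median was -0.12 and -0.19. Among all 14670 tested genes, 1988 on regular fat and 1825 on high fat had an unadjusted p under 0.05 by edgeR. Onecut1, the factor HNF6, had a mean of 75.8 CPM in RF.Ctrl and 24.8 CPM in RF.SAAR and of 55.5 CPM in HF.Ctrl and 17.3 CPM in HF.SAAR, without overlap (log2 fold change -1.61 ± 0.51 and -1.68 ± 0.52, adjusted p = 0.195 and 0.191).

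Of 13 other genes of the IGF axis (ligand, receptors, binding proteins and proteases), 11 were tested and 0 were called at either fat content by edgeR or DESeq2, and 0 had an unadjusted p under 0.05. The median was 0.11 on regular fat and 0.01 on high fat. The binding protein genes had the smallest p-values, Igfbp3 at -0.29 ± 0.16 and Igfbp2 at 0.57 ± 0.32 on regular fat, and Igfbp1 at 1.60 ± 0.86 and Igfbp6 at 0.70 ± 0.46 on high fat, with adjusted p-values from 0.501 to 0.610.

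Among liver genes that follow the male pattern of growth hormone, all that were called were lower under SAAR. Of 20 genes known as male-biased in mouse liver, all tested, 9 were called lower and 0 higher in RF.SAAR vs. RF.Ctrl and 14 were called lower and 0 higher in HF.SAAR vs. HF.Ctrl. Among all tested genes 0.886% were called lower and 0.6% higher on regular fat, and 0.961% lower and 1.01% higher on high fat. The median log2 fold change was -0.86 and -1.40, beside 0.00 for all genes. The list was written with earlier results of these data known and is not independent evidence of its direction, and without C6 and Selenbp2, which those results had shown, 7 and 12 of 18 were called lower with medians of -0.85 and -1.32. On regular fat the 5 with the smallest p were C6, a complement component (-1.09 ± 0.14, adjusted p = 0.002), Selenbp2, a selenium-binding protein (-1.98 ± 0.27, 0.00498), Ugt2b1, a glucuronosyltransferase (-0.85 ± 0.14, 0.00818), Cyp2d9, a steroid hydroxylase (-0.65 ± 0.12, 0.0138), and Mup3, a urinary pheromone carrier (-0.94 ± 0.17, 0.0141). On high fat they were C6 (-1.76 ± 0.14, 2.00e-05), Selenbp2 (-3.12 ± 0.28, 0.000243), Cyp2d9 (-0.996 ± 0.12, 0.000572), Mup3 (-1.47 ± 0.17, 0.000649) and Mup21 (-2.54 ± 0.30, 0.00166). The summed level of the list was 62030 to 80648 CPM in RF.Ctrl and 37963 to 46794 CPM in RF.SAAR, and 69621 to 106974 CPM in HF.Ctrl and 24989.6 to 40101 CPM in HF.SAAR. The Mup, Cyp4a12 and Ugt2b genes have near-identical copies among which reads are divided by estimation, so their single values are uncertain. On regular fat the count was 4 without RF.Ctrl mouse 1, 4 without RF.SAAR mouse 1 and 5 without RF.SAAR mouse 2, on high fat it was 9 without HF.SAAR mouse 1, and without the 3 mice with the most pancreatic RNA it was 8 on regular fat and 4 on high fat.

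Of 26 genes known as female-biased, 13 passed the filter, and the other 13 reached at most 3.85 CPM (Hao2) in any mouse. In each comparison 2 were called higher and 0 lower, both times Cyp39a1, an oxysterol hydroxylase, and Cyp17a1, a steroid hydroxylase. Among all tested genes 0.6% were called higher on regular fat and 1.01% on high fat. Cyp39a1 rose from 17.3 to 86.8 CPM on regular fat (2.33 ± 0.10, adjusted p = 5.80e-08) and from 11.8 to 137 CPM on high fat (3.55 ± 0.11, adjusted p = 4.45e-10). Cyp17a1 rose from 4.80 to 18.1 CPM (1.91 ± 0.39, adjusted p = 0.0408) and from 2.18 to 37.1 CPM (4.08 ± 0.43, adjusted p = 0.000908). Others went the other way: 4 of the 13 had a log2 fold change below 0 on regular fat, the lowest at -1.32, and 1 on high fat, at -0.68. The median of the 13 was 0.40 on regular fat and 0.69 on high fat, and without Cyp39a1, known from the earlier results, it was 0.38 and 0.67 with 1 of 12 called higher in each. On regular fat the count was 1 without RF.Ctrl mouse 2 or 3 and without RF.SAAR mouse 1 or 2. On high fat it was 4 by DESeq2 and by library size alone.

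**Figure D5:**
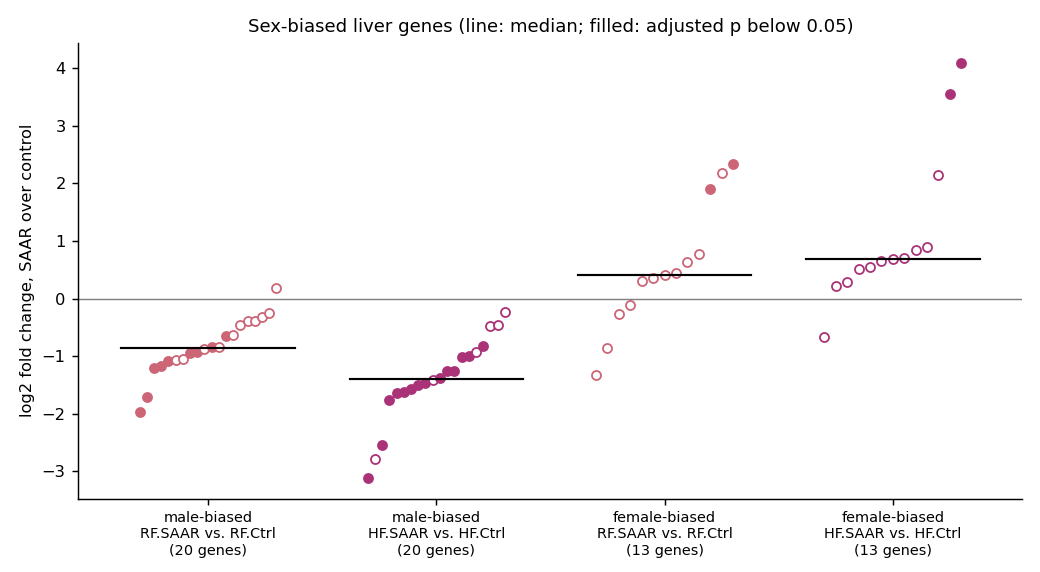
Log2 fold change of SAAR over control (vertical axis) for 20 male-biased and 13 female-biased liver genes at both fat contents, 1 point per gene, filled where the adjusted p was below 0.05, with the median as a line. The medians of the male-biased genes lie at -0.86 and -1.40 and those of the female-biased genes at 0.40 and 0.69.

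To place Ghr among the other genes, the tested genes were ordered by Pearson's r of their log2 CPM with that of Ghr over the 12 mice, as a description that includes the difference between diets. The 5 most alike were Casd1, a sialic acid acetyltransferase (r = 0.975), Prnp, the prion protein (0.973), Ces3a, a carboxylesterase (0.971), C1s1, a complement protease (0.959), and Acox3, a peroxisomal oxidase (0.955). The 3 most opposite were Hsd17b13, a lipid droplet enzyme (r = -0.990), Htatip2, an oxidoreductase (-0.988), and Grpel2, a mitochondrial chaperone partner (-0.983). Of the pathway itself, Igfals came nearest to Ghr (r = 0.774, rank 390 of 14669), then Igf1 (0.715, rank 639), whereas Stat5a (-0.705) and Cux2 (-0.644) ran opposite. Cish (0.434) and Socs2 (-0.094) stood far from it.

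The tissue was checked against cell type markers. The 9 hepatocyte markers that could be matched summed to 83092 to 106696 CPM, with 0 called, and ran from 92550 to 106696 CPM in RF.Ctrl and 83092 to 91192 CPM in RF.SAAR, apart from each other, and their part in the values on regular fat was not tested. The 18 markers of pancreatic acinar cells, which are not liver cells, were all detected in every mouse, 0 were called at either fat content, and their part in the values on high fat was not tested beyond the fits without these mice. Lymphocyte markers summed to 11.9 to 28.2 CPM, except 47.3 CPM in HF.SAAR mouse 3. Markers of Kupffer cells, endothelium, cholangiocytes and skeletal muscle had 0 genes called. The cholangiocyte markers summed to 43.3 to 58.3 CPM in HF.Ctrl and 35.4 to 38.6 CPM in HF.SAAR, apart from each other, and the adipocyte list to 2454 to 3145 CPM and 1114 to 1516 CPM, and the part of both in the values on high fat was not tested. Of the stellate cell markers Lrat was lower on regular fat (-0.86 ± 0.19, adjusted p = 0.0408), and of the adipocyte list Car3, which hepatocytes also express, was lower on high fat (-1.12 ± 0.14, adjusted p = 0.000762). The other tested genes of the adipocyte list were not called there. They were at -0.05 (Adipoq), -0.11 (Plin1), -0.06 (Cfd), 0.41 (Retn) and 1.67 (Cidea), and the list's median was -0.06.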

How the data were processed

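Per the study's methods, polyadenylated RNA from liver was sequenced in paired reads, trimmed with cutadapt, checked with FastQC and quantified by the authors with kallisto against the Ensembl mouse transcriptome, version 94. The deposited tables give estimated counts, TPM and effective length per transcript and mouse; reads that fit several transcripts were divided by estimation. Of 118489 listed transcripts 116816 were matched to genes by the GENCODE M21 annotation (GRCm38), and the unmatched 1673 held 1.08% of the counts and were left out. TPM values are used as the authors deposited them, summed per gene.

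Estimated counts were summed per gene, rounded, filtered (filterByExpr), scaled by TMM factors (0.863 to 1.11) and tested in 1 fit over the 12 mice with edgeR 4.0.16 (robust quasi-likelihood F-test, R 4.3.3), with Benjamini-Hochberg adjustment over all tested genes and a threshold of 0.05. Transcripts were fitted in the same way. The share of all tested transcripts without overlap between groups was not counted, so such statements on single transcripts are descriptions. The fit was tested on simulated data before use. Alternatives were RLE size factors, library size alone, other filters, the compared groups alone, DESeq2 1.42.0, effective length offsets and each mouse left out. The fit without the 3 mice above 2000 CPM of acinar markers, and the alternatives for the gene lists, were chosen after seeing the data. CPM on the log2 scale used a prior count of 2.

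The 10 members and all gene lists were chosen with earlier results of these data known. Named in the text are all members, of each pathway list the genes called with the smallest p (at most 5, or the 2 with the smallest p where none was called) in each SAAR comparison, and the 5 genes most and 3 least like Ghr. One gene that this rule names is not reported here. Promoter windows are from RefSeq (GRCm38.p6). Groups come from the sample labels, whose fat and diet fields hold each other's values. With 3 mice a group, the p-values rest on a spread between mice that was estimated over all 4 groups and drawn toward that of other genes.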

Additional observations from a re-analysis of the deposited data

How the results depend on the processing

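Ghr kept its direction under all 14 alternatives in each SAAR comparison, from -0.73 to -0.50 on regular fat and from -0.85 to -0.64 on high fat, and its call in all but 1: without the 3 mice with the most acinar RNA, 0 members were called on high fat, where 30 genes in all were called. With library size alone, the median of all genes moved to 0.16 on regular fat, where the Ghr fold change of -0.50 was only just called (edgeR, adjusted p = 0.0494). Between the groups on regular fat, library size alone, no filter, at least 10 counts in every mouse, the compared groups alone and effective length offsets each called 2 members (Ghr and Stat5a), and DESeq2 called 3 (with Igfals). Between those on high fat, at least 10 counts in every mouse called 2 (with Igfals) and DESeq2 3 (with Igf1 and Igfals). Leaving out 1 mouse at a time gave 1 member called in each SAAR comparison and 0 in the other 3. Of all genes, edgeR called 218 and 289 in the SAAR comparisons, DESeq2 591 and 595, and library size alone 425 and 719. Of the main Ghr transcripts, DESeq2 called 2 on regular fat and library size alone 1 on high fat, and leaving out 1 mouse gave 1 on regular fat and 1 to 2 on high fat. Male-biased genes called lower numbered 4 to 8 on regular fat and 9 to 13 on high fat with 1 mouse left out, and 4 on high fat without the acinar-rich mice. Female-biased genes called higher numbered 1 with no filter on regular fat, 4 with DESeq2 and with library size alone on high fat, and 1 to 2 on regular fat with 1 mouse left out. Of the hepatocyte transcription factors, DESeq2 called 2 lower on regular fat and 1 on high fat, and leaving out 1 mouse gave 0 to 1 on high fat. The causes were not tested beyond these fits. No paired analysis was possible because the labels give no replicate numbers, and the mouse numbers used here follow the order of deposit and only name a mouse. Precision is limited by 3 mice a group and, for Cux2 and Stat5a, by counts as low as 72 and 100 a library.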
